A study of Mus musculus with 16 samples.

Results

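The 10 genes described here encode proteins that carry a signal from the purinergic receptor P2Y1 to the calcium store of the cell: the G protein α subunits Gnaq and Gna11, the phospholipase C β isoforms Plcb1, Plcb3 and Plcb4, the IP3 receptors Itpr1, Itpr2 and Itpr3, and the SERCA calcium pumps Atp2a2 and Atp2a3. They were taken by name from a count table of 23329 genes, and all 10 were in it. Of 10820 genes that passed the filter on low counts, 9 were among these 10; Itpr2 did not pass.

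The RNA, selected for poly(A) tails, came from the pancreatic β-cell line BetaTC6, which was derived from a mouse insulinoma on a C57BL/6 background. Cells of a wild-type line and of a line with the label P2ry1 knockout grew for 3 days. After a period in glucose-free buffer they received 20 mM glucose for 30 min, with DMSO as the vehicle or with ivermectin, an antiparasitic drug. The 4 groups of 4 libraries were wild-type vehicle (WT-Con), wild-type ivermectin (WT-IVM), knockout vehicle (P2ry1KO-Con) and knockout ivermectin (P2ry1KO-IVM), and all cells received glucose. How the knockout line was made, and whether it is 1 clone, is not given in the sources used here. Nothing in the labels says that the libraries of a group came from separate cultures, so p-values measure the spread between these libraries, which may be technical.

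When ATP or ADP binds P2Y1, the receptor activates Gq proteins, whose α subunits switch on phospholipase C β. That enzyme splits the membrane lipid PIP2 into diacylglycerol, which activates protein kinase C, and IP3, which opens calcium channels in the endoplasmic reticulum. SERCA pumps return the released calcium to the store, and in β-cells these movements of calcium add to the calcium entry that glucose triggers and that drives insulin release.

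The libraries held 893088 to 2013242 counts (2.25-fold apart), and those of wild-type vehicle were the shallowest (893088 to 1064787). A count of 0, taken to allow up to 3 counts, corresponds to 1.49 to 3.36 CPM (counts relative to the size of their library, with TMM factors for the values of genes) over the 16 libraries. Of 18 β-cell marker genes, 17 passed the filter, and their summed level was 38004 to 49353 CPM in single libraries. P2ry1, the targeted gene (chr3:61002785-61008982, build GRCm38.p6), was read in every library: wild-type vehicle libraries stood at 91.1, 106, 96.2 and 85.5 CPM, those with ivermectin at 88.0, 88.2, 92.1 and 104, and the libraries labelled knockout at 83.6, 94.8, 72.8 and 84.8 with vehicle and 84.2, 92.5, 81.0 and 84.1 with ivermectin. These ranges overlapped, and neither difference passed the test (log2 difference -0.17, edgeR quasi-likelihood adjusted p = 0.245 in vehicle; -0.11, adjusted p = 0.394 in ivermectin). P2ry1 RNA thus gives no check of the labels, and every comparison of genotypes is between libraries labelled knockout and libraries labelled wild type.

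Markers of other cell types moved with the groups. The summed level of 20 hepatocyte marker genes, all of them detected in each group, was 789 to 2295 CPM in wild-type vehicle libraries, 172 to 443 in WT-IVM, 75.7 to 158 in P2ry1KO-Con and 107 to 355 in P2ry1KO-IVM. Of the 20 markers, 20 were lower in P2ry1KO-Con than in WT-Con, 19 were lower in WT-IVM than in WT-Con, and 2 were lower in P2ry1KO-IVM than in WT-IVM (edgeR quasi-likelihood, adjusted p under 0.05). The RNA came from a β-cell line, and the source of these hepatocyte transcripts was not tested. Bulk RNA does not tell the number of cells that hold a transcript from its level per cell. The part of these hepatocyte markers in the results below was not tested apart from the alternative with Alb as a covariate. In vehicle Alb moved with the genotype label, at 328 to 923 CPM in WT-Con and 17.1 to 52.3 in P2ry1KO-Con. Averaged over treatments it differed too (log2 difference -2.24). That alternative therefore cannot separate Alb from the label there, and a call lost with it cannot be assigned to either. The comparison under ivermectin sets no wild-type vehicle library against another, although all 16 libraries enter its fit. With the 8 ivermectin libraries fitted alone, Atp2a3 differed by 0.61 (adjusted p = 4.78e-09), and Itpr1 passed in addition (0.0498). Hormone genes of other islet cells moved with the genotype label in both treatments. The summed level of 6 markers of α, δ and PP cells was 483 to 568 CPM in WT-Con and 520 to 547 in WT-IVM, against 233 to 260 in P2ry1KO-Con and 235 to 285 in P2ry1KO-IVM. Sst (somatostatin) was at 218 ± 15.4 and 230.1 ± 22.2 CPM in the wild-type groups and at 15.4 ± 2.60 and 18.7 ± 5.27 in the knockout groups, and Gcg (glucagon) at 297 ± 26.3, 288 ± 10.9, 216 ± 12.9 and 223 ± 17.5 in the same order (SD, n = 4 each). Both were lower in vehicle (-3.80, adjusted p = 2.92e-23 and -0.46, adjusted p = 9.69e-06, edgeR quasi-likelihood) and under ivermectin (-3.62 and -0.37), without overlap of the groups. Irx2, a transcription factor gene of α cells, did not pass in either treatment. The part of these markers in the differences between genotype labels, that of Atp2a3 included, was not tested.

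No marker of striated muscle, acinar, fibroblast, endothelial or white blood cells passed the filter, but their low sums differed between groups too. The 13 muscle markers summed to 23.2 to 38.5 CPM in WT-Con, 4.93 to 26.0 in WT-IVM, 2.99 to 6.39 in P2ry1KO-Con and 2.68 to 7.84 in P2ry1KO-IVM. The 11 markers of fibroblast, endothelial and white blood cells summed to 14.9 to 19.1, 3.29 to 9.28, 8.53 to 11.97 and 7.84 to 13.6 CPM in the same order, and the 9 acinar markers to at most 3.06 CPM in any library. The part of these in the results was not tested.

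TPM, the authors' transcript levels per transcript length within a library, put the SERCA pumps first and the IP3 receptors Itpr3 and Itpr2 last. Over the 16 libraries Atp2a2 averaged 820 ± 107 TPM (SD) and Atp2a3 249 ± 56.6. Gna11 followed at 104 ± 9.23 and Gnaq at 38.5 ± 5.73. Plcb4 averaged 16.3 ± 3.44 TPM and Itpr1 11.5 ± 2.42. Plcb3 was at 6.42 ± 1.09 and Plcb1 at 6.12 ± 1.13, while Itpr3 was at 0.983 ± 0.402 and Itpr2 at 0.801 ± 0.306. The ranges of neighbours in this order overlapped for Plcb4 and Itpr1, Itpr1 and Plcb3, Plcb3 and Plcb1, and Itpr3 and Itpr2, and the other neighbours were separate in every library. Within the 4 groups taken singly, Plcb4 and Itpr1 overlapped in each, Plcb3 and Plcb1 overlapped in each, and Itpr3 and Itpr2 overlapped in each; Itpr1 and Plcb3 overlapped in both wild-type groups and were separate in both knockout groups. In 16 of 16 libraries the TPM of Atp2a3, the lesser pump gene, exceeded the summed TPM of the 3 IP3 receptors.

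**Figure D1:**
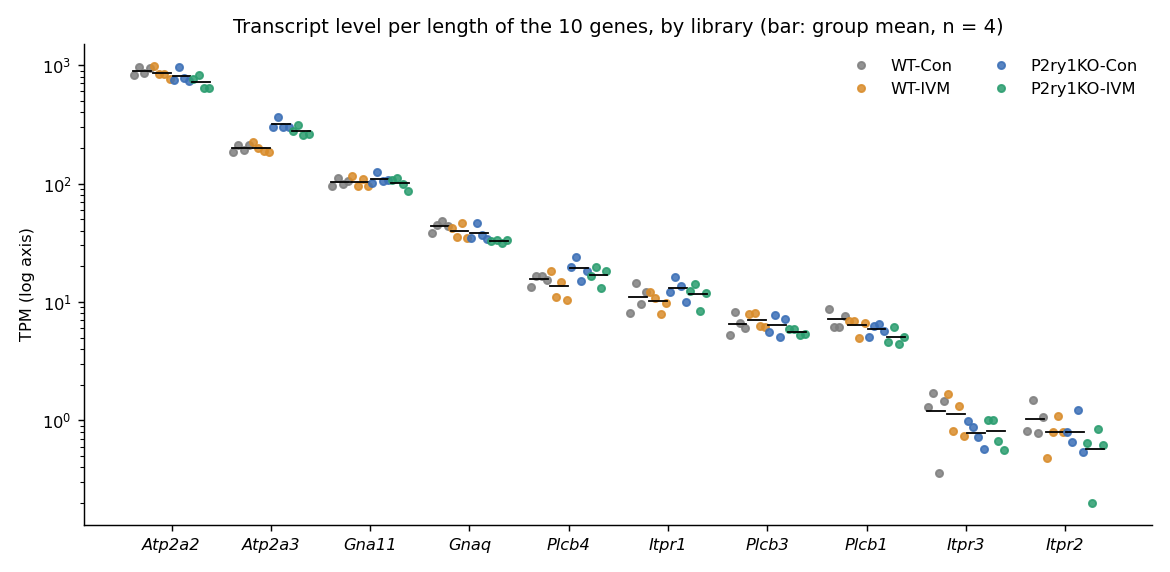
TPM (log axis) of the 10 genes in each of 16 libraries, points coloured by group and bars at group means (n = 4 libraries each). Atp2a2, Atp2a3, Gna11 and Gnaq occupy separate levels, and the 2 groups labelled knockout lie above the wild-type groups for Atp2a3.

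In vehicle, 1 of the 9 tested genes was higher in libraries labelled knockout, Atp2a3, and 0 were lower. Over all 10820 tested genes, 20.7% passed the same threshold (adjusted p under 0.05), 9.86% higher and 10.8% lower. The median log2 difference of the 9 genes was 0.04, against -0.00066 over all genes tested. Under ivermectin, 2 of the 9 were higher, Atp2a3 and Plcb4, and 0 lower, where 27.8% of all genes passed, 13.9% in each direction; the medians were -0.08 and -0.0004. With the difference averaged over both treatments, 4 of the 9 were higher (Atp2a3, Plcb4, Itpr1 and Gna11) and 0 lower, where 39.9% of all genes passed, 19.8% higher and 20.1% lower. The share of the 9 genes that passed was therefore near the share of all genes in each comparison, and Atp2a3 was the member that passed in all 3. It was also the 1 gene of the 9 that passed in the same direction in both single comparisons, as 15% of all genes did.

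**Figure D2:**
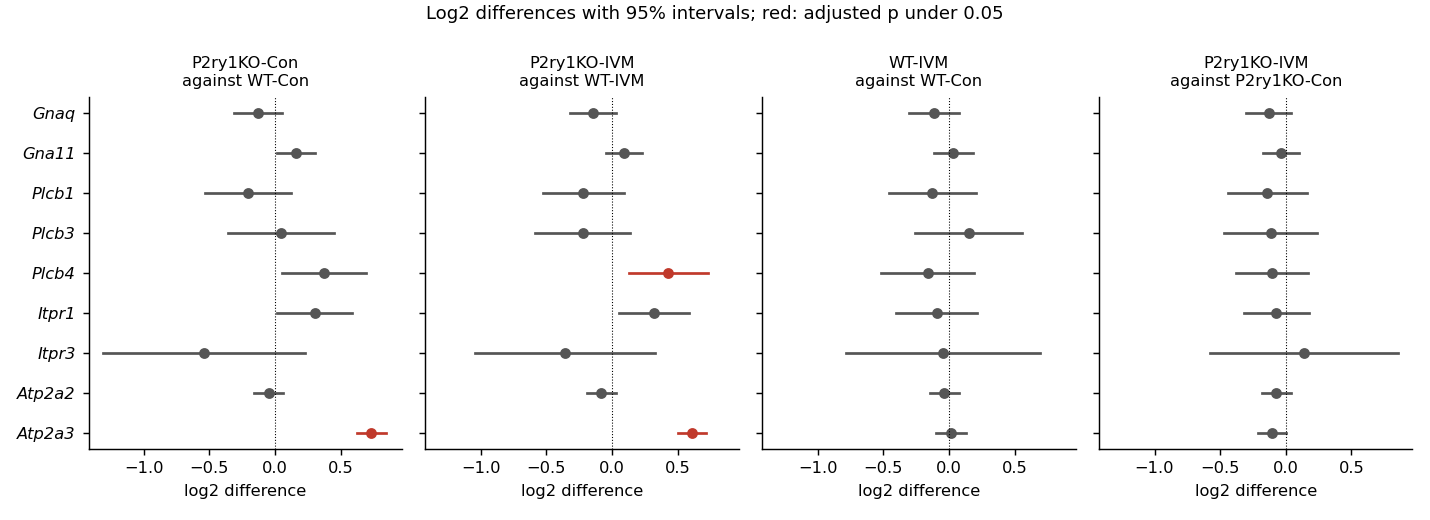
Log2 differences with 95% intervals for the 9 tested genes in 4 comparisons of groups of 4 libraries, with adjusted p under 0.05 in red. Atp2a3 stands at 0.73 and 0.61 in the comparisons of genotype labels, Plcb4 passes in the second alone, and every interval of an ivermectin comparison other than that of Atp2a3 in the knockout line includes 0.

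The α subunits of Gq couple the receptor to phospholipase C. Gnaq (chr19:16132684-16388520) encodes Gαq, and its level was 143, 159, 178 and 156 CPM in WT-Con, 147, 132, 175 and 136 in WT-IVM, 139, 166, 141 and 137 in P2ry1KO-Con, and 130, 128, 133 and 142 in P2ry1KO-IVM. The groups overlapped, and wild-type vehicle replicate 3 and wild-type ivermectin replicate 3 were the highest libraries. The log2 difference was -0.13 with vehicle (SE 0.0909; adjusted p = 0.344, edgeR quasi-likelihood test) and -0.14 under ivermectin (SE 0.0870, adjusted p = 0.223).

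Gna11 (chr10:81528724-81545162) encodes Gα11, a close relative of Gαq that activates the same enzymes. It was at 202, 225, 207 and 209 CPM in WT-Con, 227, 198, 228 and 211 in WT-IVM, 224, 251, 229 and 239 in P2ry1KO-Con, and 237, 239, 235 and 208 in P2ry1KO-IVM. In vehicle, knockout replicate 1 (224) alone fell below the highest wild-type library (225), and the ivermectin groups overlapped more widely. Averaged over treatments, Gna11 rose by 0.13 on the log2 scale in libraries labelled knockout (SE 0.0496, edgeR quasi-likelihood adjusted p = 0.0417). That call was lost in 15 of 26 alternatives, DESeq2 among them (adjusted p = 0.0793), and neither single comparison passed (0.16, adjusted p = 0.110 in vehicle; 0.09, adjusted p = 0.345 under ivermectin).

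Since Gnaq and Gna11 differ in length, their mix is given in TPM. Gna11 made up 70.2% ± 1.96 of the summed TPM of the pair in WT-Con, 72.3% ± 1.66 in WT-IVM, 74.3% ± 1.12 in P2ry1KO-Con and 75.3% ± 2.12 in P2ry1KO-IVM (SD, n = 4 each). In vehicle, the 4 knockout libraries (73.0 to 75.7%) were all above the 4 wild-type libraries (67.4 to 71.55%); under ivermectin the groups overlapped. No test was made of these shares, and reads shared by the similar coding sequences could have been split between the 2 genes by the authors' counting.

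Phospholipase C β enzymes are the direct targets of Gαq. Plcb4 (chr2:135658603-136014602) was at 32.6, 38.1, 39.5 and 35.3 CPM in wild-type vehicle and 49.9, 55.2, 37.4 and 46.6 in knockout vehicle. Under ivermectin it was at 41.0, 26.3, 35.1 and 26.0 CPM in wild-type and 41.8, 48.6, 35.9 and 49.2 in knockout libraries. In each treatment 3 of the 4 knockout libraries were above all wild-type libraries, and replicate 3 of each knockout group fell within the wild-type range. The log2 difference was 0.37 with vehicle (SE 0.159; adjusted p = 0.0927, edgeR quasi-likelihood test) and 0.43 under ivermectin (SE 0.148, adjusted p = 0.0272), and averaged over treatments Plcb4 rose by 0.40 (95% interval 0.18 to 0.62, adjusted p = 0.00328). The ivermectin call was lost with DESeq2 (0.44, adjusted p = 0.0916), with libraries thinned to the smallest total (0.30, 0.349) and with Alb as a covariate (0.37, 0.0777). It was also lost without wild-type ivermectin replicate 2 (0.33, 0.124) or 4 (0.36, 0.0795) and without knockout ivermectin replicate 2 (0.37, 0.0810) or 4 (0.38, 0.0849). The averaged log2 difference was 0.35 with thinning (adjusted p = 0.0616), and 0.23 with Alb as a covariate (0.465).

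Plcb1 (chr2:134786164-135475258), an isoform common in brain and islets, lies next to Plcb4, with 183.345 kb between them. Its level was 41.6, 27.4, 28.9 and 34.4 CPM in WT-Con, 30.5, 32.9, 23.9 and 32.9 in WT-IVM, 25.0, 28.1, 31.9 and 28.6 in P2ry1KO-Con, and 23.1, 29.7, 23.5 and 27.2 in P2ry1KO-IVM. The groups overlapped, and the estimates had the opposite sign to those of Plcb4, at -0.21 with vehicle (SE 0.161; adjusted p = 0.396, edgeR quasi-likelihood test) and -0.22 under ivermectin (SE 0.152, adjusted p = 0.299). Plcb3 (chr19:6953708-6975006), an isoform that Gβγ also activates strongly, ranged from 14.5 to 21.9 CPM, with log2 differences of 0.04 (adjusted p = 0.911) and -0.22 (adjusted p = 0.378). Under ivermectin all 4 knockout values of Plcb3 (16.33 to 17.15 CPM) were below the 4 wild-type values (17.24 to 21.92 CPM), a separation that 2 of the 9 genes (the other is Atp2a3) and 25.3% of all tested genes showed in one direction or the other. Plcb2, the blood cell isoform, was at 0 in 13 of 16 libraries and at most 0.766 CPM, under the limit of a count of 0.

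Within the summed TPM of the Plcb genes, Plcb4 made up 53.1% ± 3.02 in WT-Con, 49.6% ± 7.27 in WT-IVM, 60.6% ± 3.91 in P2ry1KO-Con and 60.9% ± 2.36 in P2ry1KO-IVM (SD, n = 4 each). Plcb1 made up 24.6% ± 5.44, 23.8% ± 4.50, 19.0% ± 3.83 and 18.4% ± 1.16, and Plcb3 22.3% ± 3.13, 26.3% ± 3.18, 20.3% ± 2.11 and 20.5% ± 2.17, in the same order. The Plcb4 share under ivermectin did not overlap between the labels (57.8 to 63.3% against 42.4 to 56.5%). In vehicle the lowest knockout library, replicate 3 at 56.4%, fell just below the highest wild-type library.

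IP3 receptors are the channels through which the store empties. Itpr1 (chr6:108213083-108551116) was the main one by TPM, at 83.4% ± 4.35 of the 3 receptors in WT-Con, 83.8% ± 4.69 in WT-IVM, 89.1% ± 2.00 in P2ry1KO-Con and 89.0% ± 3.26 in P2ry1KO-IVM (SD, n = 4 each). Its level was 54.0, 91.0, 64.1 and 77.1 CPM in WT-Con, 76.0, 71.8, 53.0 and 67.4 in WT-IVM, 86.5, 104, 93.8 and 71.5 in P2ry1KO-Con, and 86.8, 97.7, 63.4 and 89.3 in P2ry1KO-IVM. Each pair of groups overlapped, and the highest library of each treatment was a knockout one. The log2 difference was 0.30 with vehicle (SE 0.141; adjusted p = 0.126, edgeR quasi-likelihood test) and 0.32 under ivermectin (SE 0.131, adjusted p = 0.0625), and both passed without the low-count filter (0.0236 and 0.0108). Averaged over treatments, Itpr1 rose by 0.31 (95% interval 0.12 to 0.51, adjusted p = 0.00918), a call that 25 of 26 alternatives kept; with Alb as a covariate the value was 0.08 (adjusted p = 0.796).

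Itpr3 (chr17:27057002-27122223) and Itpr2 (chr6:146108299-146502258) encode the other receptors, of which the type 2 receptor has the highest affinity for IP3. Itpr3 was at 7.87, 9.78, 2.14 and 8.36 CPM in WT-Con, 9.50, 4.93, 7.95 and 4.59 in WT-IVM, 6.39, 5.02, 4.49 and 3.71 in P2ry1KO-Con, and 6.43, 6.28, 4.57 and 3.88 in P2ry1KO-IVM. The groups overlapped, and the log2 differences of -0.54 with vehicle (SE 0.379; adjusted p = 0.336, edgeR quasi-likelihood test) and -0.36 under ivermectin (SE 0.338, adjusted p = 0.463) had wide errors, and single libraries held 2 to 19 counts. Itpr2 held 2 to 14 counts per library, or 1.14 to 7.82 CPM, and without the filter its log2 differences were -0.25 (95% interval -1.08 to 0.58) and -0.28 (-1.13 to 0.56).

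**Figure D3:**
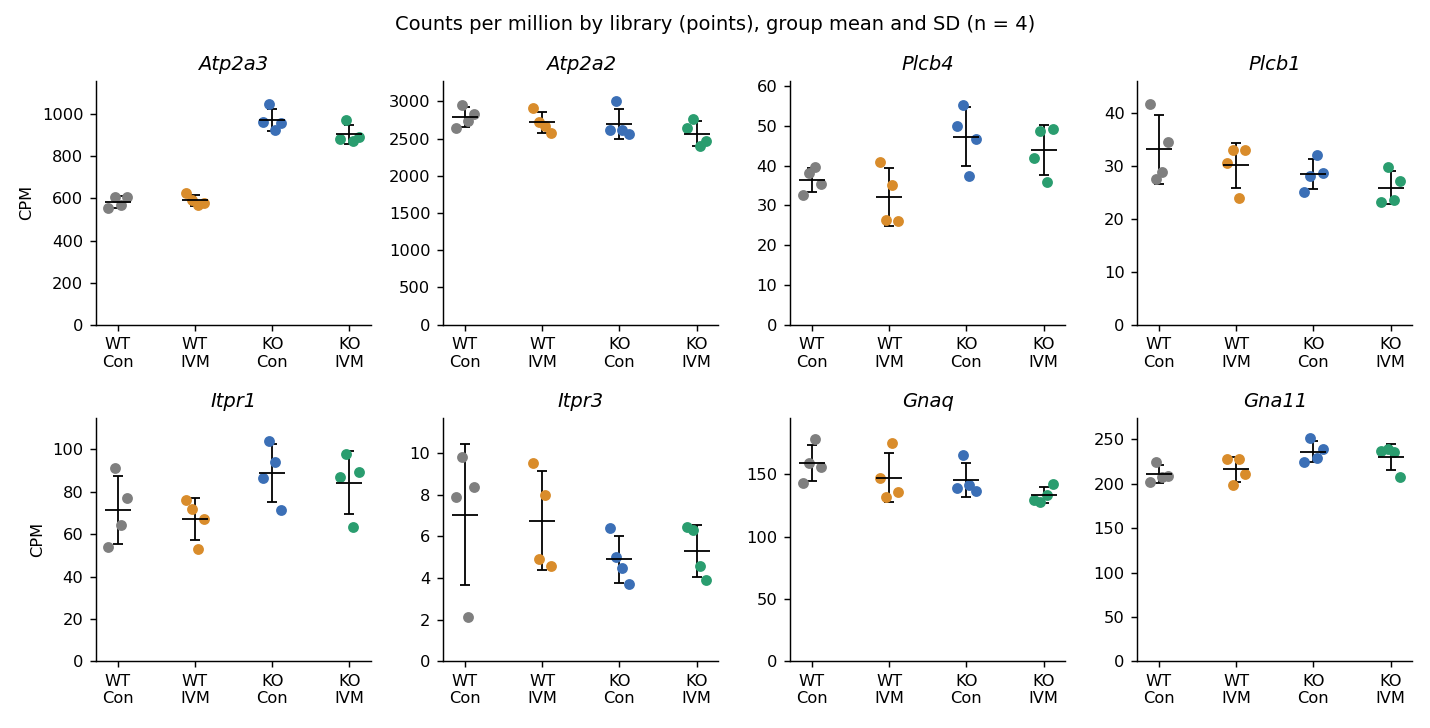
CPM (linear axes from 0) of 8 of the genes in each library, with group means and SD (n = 4; KO stands for libraries labelled P2ry1 knockout). Atp2a3 is the only one of the 8 whose knockout and wild-type libraries are apart in both treatments.

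SERCA pumps refill the store. Atp2a2 (chr5:122453513-122502225), which encodes the pump found in nearly all cells, was at 2636, 2949, 2734 and 2834 CPM in WT-Con, 2909, 2721, 2672 and 2572 in WT-IVM, 2619, 3000.5, 2614 and 2558 in P2ry1KO-Con, and 2648, 2759, 2399 and 2465 in P2ry1KO-IVM. The groups overlapped, with differences of -0.05 in vehicle (95% interval -0.16 to 0.06, edgeR quasi-likelihood adjusted p = 0.586) and -0.08 under ivermectin (-0.19 to 0.03, adjusted p = 0.270).

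Atp2a3 (chr11:72961169-72993043) encodes SERCA3, a pump of lower calcium affinity found in β-cells, blood cells and some epithelia. It was at 553, 608, 570 and 609 CPM in wild-type vehicle and at 962, 1048, 927 and 958 in knockout vehicle. Under ivermectin it was at 628, 592, 569 and 578 CPM in wild-type and 881, 972, 872 and 894 in knockout libraries. In vehicle it was the 1 gene of the 9 whose groups did not overlap (22.1% of all genes). All 8 knockout libraries were above all 8 wild-type libraries, a separation in the higher direction that 4.71% of all tested genes showed. Atp2a3 rose by 0.73 on the log2 scale in vehicle (1.66-fold, 95% interval 1.54 to 1.80, SE 0.0549, edgeR quasi-likelihood adjusted p = 1.06e-12) and by 0.61 under ivermectin (1.53-fold, 95% interval 1.42 to 1.65, SE 0.0533, adjusted p = 4.88e-11). The averaged rise was 0.67 (adjusted p = 1.66e-16), and the call held in all alternatives run, with adjusted p from 1.08e-64 to 1.02e-07. Among 10820 genes it ranked 20th by p and 250th by size of the rise in vehicle, and 38th and 430th under ivermectin. Of the 113 genes at least as abundant, Atp2a3 itself included, 3 in vehicle and 5 under ivermectin rose by as much or more, again with Atp2a3 counted.

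One pump gene rose and the other did not pass, and their mix differed between the labels. Atp2a3 made up 18.1, 18.0, 18.4 and 18.4% of the summed TPM of the SERCA genes in WT-Con, and 18.5, 19.1, 18.4 and 19.5% in wild-type ivermectin. In libraries labelled knockout it made up 28.9, 27.6, 27.9 and 28.9% in vehicle and 26.8, 27.8, 28.7 and 28.9% under ivermectin. The shares spread by less than 3 percentage points within each label and were 10.1 points higher in vehicle and 9.19 points higher under ivermectin in the knockout libraries. Atp2a1, the pump of fast skeletal muscle, made up at most 0.42%. It was at 0.978 to 9.62 CPM in WT-Con and at most 2.50 CPM elsewhere. WT-Con was also the group whose hepatocyte and muscle marker sums had the highest medians, and Atp2a1 is itself among those muscle markers.

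**Figure D4:**
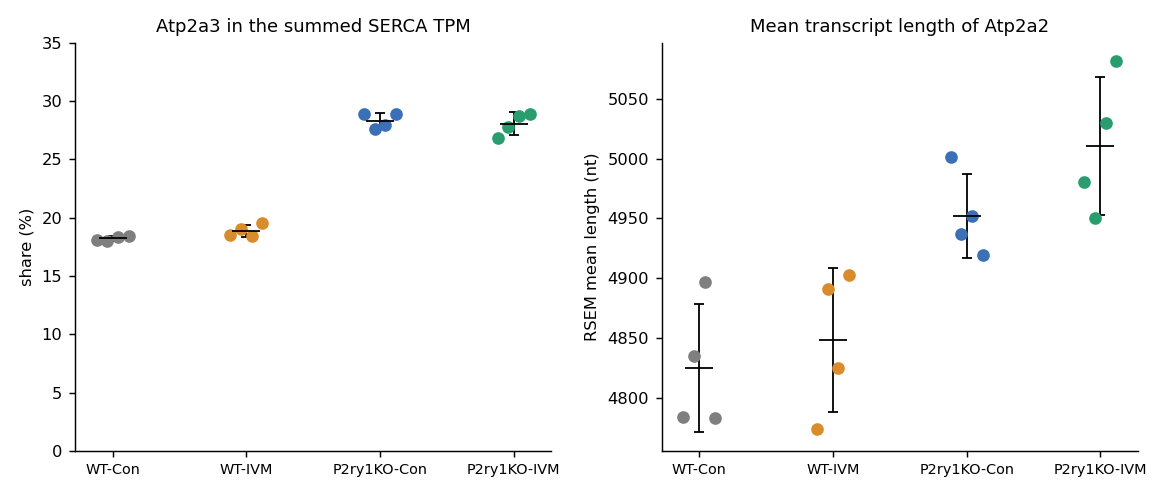
Left, share of Atp2a3 in the summed TPM of the SERCA genes (percent, axis from 0); right, RSEM mean transcript length of Atp2a2 in nt (axis not from 0); points are libraries, bars are group means with SD (n = 4). In both panels the 8 libraries labelled knockout lie above the 8 wild-type libraries.

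The Atp2a3 promoter is shown because Atp2a3 is the member that differed in both treatments. The 250 bases before its start site in RefSeq (GRCm38.p6, chr11:72960919-72961168, plus strand) are printed in lower case, with each GC box (GGGCGG on either strand, overlaps included) in capitals.
Atp2a3 promoter: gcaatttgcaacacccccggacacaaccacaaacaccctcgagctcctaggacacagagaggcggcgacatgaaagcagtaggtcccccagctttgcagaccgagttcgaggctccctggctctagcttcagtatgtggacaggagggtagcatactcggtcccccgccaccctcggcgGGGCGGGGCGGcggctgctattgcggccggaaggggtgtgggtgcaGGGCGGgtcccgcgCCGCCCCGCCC
The window holds 5 GC boxes, the letters bound by Sp1-type factors, and such a box is in 32.7% of 32851 RefSeq windows of this length. It holds no E-box (CACGTG, in 6.02% of windows), no cAMP response element (TGACGTCA, 1.55%) and no EGR1 motif (GCGNGGGCG, 4.7%), searched on both strands; the EGR1 motif can overlap a GC box. Of the 10 genes, 8 have a promoter in the table used, with 9 windows, and all 8 hold a GC box in at least 1 window, while Itpr3 alone holds an E-box and an EGR1 motif. A GC box was thus present in members that differed and in members that did not pass a test, and a match is a description of letters and not a binding site.

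RSEM's gene length is the mean length of a gene's transcripts weighted by their abundance, so it moves when the mix of transcripts moves. Of the 10 genes, 4 have 2 or more transcripts in the authors' tables (Atp2a2 and Atp2a3 with 3, Plcb1 and Itpr2 with 2). For Atp2a2 the mean length was 4784, 4835, 4897 and 4783 nt in WT-Con, 4774, 4891, 4825 and 4903 in WT-IVM, 5001, 4937, 4952 and 4919 in P2ry1KO-Con, and 4980.3, 4950.1, 5030 and 5081 in P2ry1KO-IVM. All 8 knockout libraries were above all 8 wild-type libraries, a separation that 0.276% of the 2532 genes tested for length showed in one direction or the other. The mean was 3.00% longer in libraries labelled knockout (95% interval 1.84 to 4.16%, limma adjusted p = 0.0210), and 12 of the 2532 genes (0.474%) passed this test. The call was lost without wild-type ivermectin replicate 3 (adjusted p = 0.0515), knockout vehicle replicate 1 (0.0516), knockout ivermectin replicate 3 (0.0575) or knockout ivermectin replicate 4 (0.0528), with log2 estimates of 0.0392 to 0.0416 in these 4 runs against 0.0426 with all libraries, and it was lost with a replicate block (0.0592). Leaving out WT-Con replicate 4 made the 12 genes 20, and leaving out P2ry1KO-IVM replicate 3 made them 7. Plcb1 (-0.862%, limma adjusted p = 0.183) and Atp2a3 (-0.0426%, adjusted p = 0.986) did not pass, although Plcb1 passed without wild-type vehicle replicate 2 (adjusted p = 0.0392), and the length of Itpr2 was 8232 nt in every library.

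Atp2a2 gives rise to 2 pumps that differ at their C-terminal end: SERCA2a, the form of heart and slow muscle, and SERCA2b, the widespread form, whose tail spans the membrane once more and raises calcium affinity. The coding ends that tell them apart are printed from RefSeq (GRCm38.p6, minus strand), with the stop codon in capitals, at chr5:122454291-122454304 for isoform a and chr5:122457151-122457302 for isoform b.
Atp2a2 isoform a end: caatactggagTAA
Atp2a2 isoform b end: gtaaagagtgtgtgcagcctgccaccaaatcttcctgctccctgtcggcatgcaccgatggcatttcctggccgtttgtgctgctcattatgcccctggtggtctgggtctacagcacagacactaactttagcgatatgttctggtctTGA
In these RefSeq models the transcript of isoform a is 4315 nt long, that of isoform b 4502 nt, and a non-coding transcript of the gene 5725 nt. The measured mean exceeded both coding lengths in all 16 libraries, so a mix of isoforms a and b alone cannot give it if these lengths applied. Under these lengths, and for any mix of a and b, the weight of the non-coding transcript would lie between 23.0 and 41.3% over the WT-Con libraries, 22.2 and 41.7% in WT-IVM, 34.1 and 48.7% in P2ry1KO-Con and 36.6 and 54.4% in P2ry1KO-IVM. These ranges overlap between the labels. The version of the transcript set that the authors used is not given in the sources used here and need not match, since the RefSeq lengths of Itpr2 used here differ from the length in their tables, so these shares are bounds under an assumption and not measurements.

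Ivermectin given for 30 min moved none of the 9 tested genes past the threshold in either line. In wild-type libraries 0 of 9 passed with edgeR's quasi-likelihood test, 0 had an unadjusted p under 0.05 and 0 passed with DESeq2, where 0.601% of all genes passed (65 genes, or 100 without wild-type ivermectin replicate 1). Log2 differences ran from -0.16 for Plcb4 (95% interval -0.51 to 0.19) to 0.15 for Plcb3 (-0.26 to 0.56). In libraries labelled knockout 0 of 9 passed, with 0 of all genes passing (0%) and 0 of 9 by DESeq2; 1 of the 9, Atp2a3, had an unadjusted p under 0.05 (-0.11, 95% interval -0.21 to -0.0012, edgeR quasi-likelihood adjusted p = 0.654). The other members ran from -0.14 for Plcb1 (-0.44 to 0.16) to 0.14 for Itpr3 (-0.58 to 0.86). In both lines the ivermectin and vehicle libraries of all 9 genes overlapped, where 3.35% of all genes in wild type and 3.69% in the knockout line did not. For the abundant pump Atp2a2 the intervals were narrow, -0.15 to 0.07 in wild-type and -0.18 to 0.04 in knockout libraries.

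The difference between the lines in their response to ivermectin was tested as an interaction. Of the 9 genes 0 passed (0 at an unadjusted p under 0.05 and 0 with DESeq2), where 0.222% of all genes did. That count of 24 genes was 48 when WT-IVM replicate 1 was left out, 14 when WT-IVM replicate 3 was, and 8 when P2ry1KO-IVM replicate 1 was. The values ran from -0.27 for Plcb3 (95% interval -0.81 to 0.27) to 0.18 for Itpr3 (-0.84 to 1.21), and that of Atp2a3 was -0.12 (-0.28 to 0.03, edgeR quasi-likelihood adjusted p = 0.9998).

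Other genes of the pathway were counted in 8 lists, to be read against 9.86% higher and 10.8% lower among all tested genes in vehicle, and 13.9% each way under ivermectin. Among calcium-binding proteins of the lumen of the endoplasmic reticulum and Golgi, which hold the stored calcium, 9 of 14 tested genes were lower and 0 higher in P2ry1KO-Con, and 9 were lower and 1 higher under ivermectin, so that 64.3% were lower in each; the median log2 differences were -0.27 and -0.23. Rcn3, a reticulocalbin, was at 130, 113, 111 and 101 CPM in wild-type vehicle and 60.4, 44.1, 46.9 and 51.9 in knockout vehicle, a fall of 1.17 on the log2 scale (SE 0.120, edgeR quasi-likelihood adjusted p = 2.3e-09). Calu (calumenin, -0.43) and Pdia4 (a disulfide isomerase, -0.35) fell in vehicle as well, and both also fell under ivermectin. Rcn1 passed in vehicle (-0.35, adjusted p = 0.0226) and under ivermectin (-0.28, adjusted p = 0.0348), but the calls were lost in 6 and 8 of 19 alternatives, DESeq2 among them (0.0630 and 0.104) and single libraries left out (up to 0.127 without wild-type vehicle replicate 2 and 0.117 without wild-type ivermectin replicate 4). The knockout and wild-type libraries of Rcn3 did not overlap, and this list held the largest share of lower genes among the 8 in both comparisons.

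Upstream, 5 of 22 tested G protein β and γ subunits, RGS proteins, receptor kinases and arrestins were lower and 0 higher in knockout vehicle (6 and 1 under ivermectin), or 22.7% and 27.3% lower. Gnb1, a Gβ subunit, was at 621 to 666 CPM in wild-type vehicle and 514 to 530 in knockout vehicle (-0.30, SE 0.0499, edgeR quasi-likelihood adjusted p = 1.9e-05). Adrbk1, the receptor kinase GRK2 (-0.40), fell too. Gnb2 passed in vehicle (-0.20, adjusted p = 0.0137) and under ivermectin (-0.16, 0.0289), calls lost in 3 and 8 of 19 alternatives, among them without wild-type vehicle replicate 3 (0.0897) and without wild-type ivermectin replicate 1 (0.0921). Of 7 other phospholipase C genes 1 was higher in each treatment, Plcg1, the isoform of tyrosine kinase receptors (0.36 in vehicle, SE 0.0954, adjusted p = 0.00565).

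In the turnover of the lipids and of IP3, 2 of 28 tested genes were higher and 1 lower in P2ry1KO-Con, and 4 were higher and 4 lower under ivermectin, shares below those of all genes in vehicle (7.14% higher and 3.57% lower) and close to them under ivermectin (14.3% each). Inpp5a, the phosphatase that inactivates IP3, rose by 0.47 with vehicle (SE 0.102; adjusted p = 0.000686, edgeR quasi-likelihood test) and Pi4k2a, a phosphatidylinositol kinase, by 0.49, while Cds2, which makes CDP-diacylglycerol, fell by 0.28 (adjusted p = 0.0120, lost with DESeq2 at 0.0550 and without wild-type vehicle replicate 2 at 0.0680). On the diacylglycerol arm 1 of 20 was higher and 2 lower in vehicle (1 and 5 under ivermectin, 25% lower). Among the lower genes was Prkca, protein kinase Cα, at 96.6 to 123 CPM in wild-type vehicle and 78.8 to 83.6 in knockout vehicle (-0.50, SE 0.0932, adjusted p = 0.000121).

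Among other release channels and proteins that bind IP3 receptors, 1 of 17 was higher and 3 lower in vehicle (2 and 4 under ivermectin), or 17.6% and 23.5% lower. Bok, a Bcl-2 family protein that binds IP3 receptors, fell by 1.39 (6.61 ± 0.752 CPM in knockout vehicle against 17.5 ± 2.28 in WT-Con, SD, n = 4 each; edgeR quasi-likelihood adjusted p = 8.79e-05). Pkd2, the channel polycystin-2, fell by 0.53, and Vdac1, the mitochondrial channel tethered to IP3 receptors, rose by 0.47. Of 10 tested pumps, exchangers and SERCA regulators 3 were higher (30%) and 2 lower (20%) in each treatment. Tmx4, a thioredoxin-related protein of the endoplasmic reticulum membrane, fell by 0.53. The sodium-calcium exchanger Slc8a3 rose by 0.83 in vehicle (adjusted p = 0.0130), a call lost in 4 of 18 alternatives, among them without wild-type vehicle replicate 1 (0.0726) or 4 (0.0547). Slc8a2, another such exchanger, was just past the threshold in vehicle (0.58, adjusted p = 0.0474), a call lost in 12 of 18 alternatives, with DESeq2 (0.169), a replicate block (0.0510), the 8 libraries alone (0.0647) and 6 single libraries left out among them. Under ivermectin it passed (0.54, adjusted p = 0.0285), and 7 of 18 alternatives ended the call (DESeq2, 0.136). Of 9 store-operated entry genes 0 were higher and 1 lower in each treatment, Tmem66 (SARAF), an inhibitor of that entry (-0.33 in vehicle). With Alb as a covariate, 15 of the 19 genes named from these lists lost their vehicle call (all but Pdia4, Rcn3, Tmx4 and Vdac1) and 1 of the 19 its call under ivermectin (Rcn1). The 15 kept their direction, at 0.791 to 1.40 times the log2 difference without the covariate (Gnb1 -0.30 in both, Bok -1.47 against -1.39). Since Alb itself moved with the genotype label in vehicle, these losses cannot be assigned to Alb or to the label. In none of the 8 lists did any gene pass for ivermectin against vehicle in either line.

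**Figure D5:**
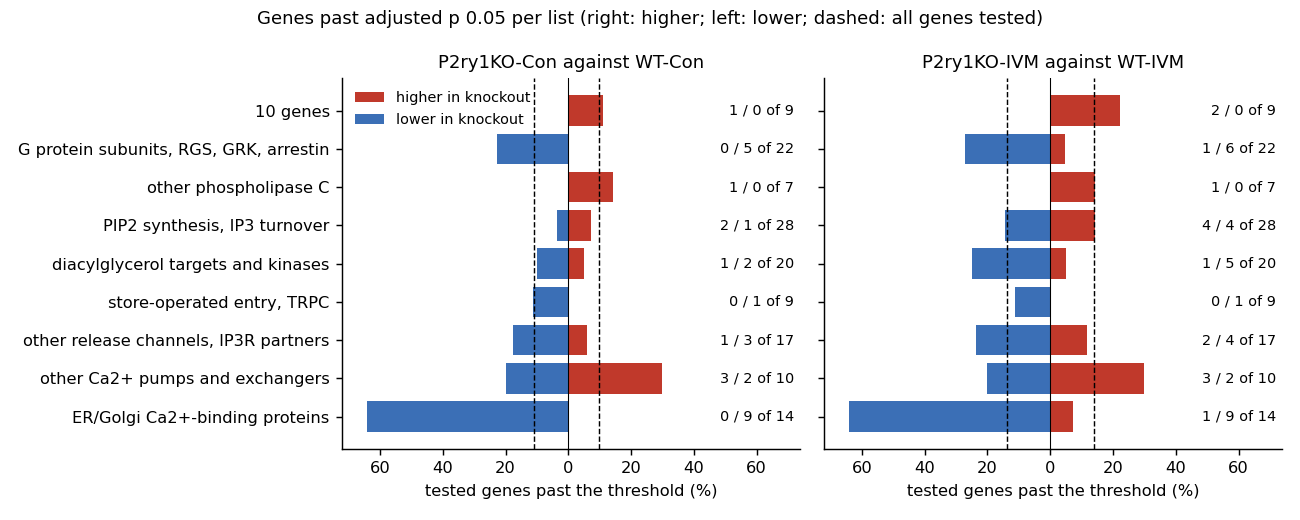
Percent of tested genes per list that passed adjusted p under 0.05, higher (right) and lower (left) in libraries labelled knockout, in vehicle and under ivermectin; numbers give higher / lower of tested, and dashed lines the percent over all genes. The list of luminal calcium-binding proteins reaches 9 of 14 lower in both panels, while the 10 genes reach 1 and 2 of 9 higher.

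Atp2a3 passed in both comparisons of genotype labels, and the genes with the most similar profile over the 16 libraries were sought among 10232 genes, by the root mean square distance between centred log2 CPM. The nearest were Scd2 (distance 0.0585), a fatty acid desaturase, Pappa2 (0.0622), a protease of IGF-binding proteins, and Igf2 (0.0647), a growth factor. Their log2 differences were 0.64 and 0.65 for Scd2, 0.72 and 0.57 for Pappa2, and 0.70 and 0.70 for Igf2, in vehicle and under ivermectin. The likeness is a description over libraries that share the same grouping.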

How the data were processed

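Whole-number counts per gene were deposited by the authors in 1 table of 16 libraries; every value (100%) equalled the expected count from RSEM rounded down. Expected counts, TPM and transcript lengths came from the authors' RSEM gene tables, per the file headers. The submitters' processing notes list bcl2fastq, STAR 2.7.2b, RSEM 1.3.3, DESeq2 1.32.0 and build mm10; whether counting used strand is not given in the sources used here. Single-cell files of human donors were not used.

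Genes were kept with edgeR's filterByExpr (minimum count 10, minimum total 15), and fitted in R 4.3.3 by edgeR 4.0.16 (quasi-likelihood F test with TMM factors, 4 group means over 16 libraries, Benjamini-Hochberg adjustment over 10820 genes, threshold 0.05). Standard errors come from the fold and its F statistic. Transcript length was tested with limma 3.58.1 (log2 length, trended eBayes). Both scripts were tested on simulated data. Each of 24 replicate pairs differed by more than counting noise (chi-squared per degree of freedom 1.16 to 6.81); limits for a count of 0 cover counting error only, since reads without molecular identifiers are not independent molecules.

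Alternatives were DESeq2 1.42.0, relative log expression or upper quartile factors, a replicate block, no filter, a filter at a mean of 50 counts or more, the 8 libraries of a comparison alone, RSEM expected counts rounded, an effective length offset, thinning to the smallest total, Alb as a covariate, and leaving out each library. The members, lists and tests were chosen with earlier results of these data known. The 10 genes and P2ry1 are named in full; from each list, up to 3 genes (4 where 6 or more qualify) that passed in the same direction in both comparisons of genotype labels, with a mean log2 CPM of at least 3, by size of the averaged difference. Plcb2, Atp2a1, the markers of other islet cells and the neighbouring genes of members were named after their values were seen. Coordinates, promoters and transcript models are RefSeq's for GRCm38.p6.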

Additional observations from a re-analysis of the deposited data

Results flagged for a closer look

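Of 84 groups of 4 values examined for the 10 genes, 5 held 1 library far from the other 3, where chance gives about 1 in 20, or 4.2. In knockout vehicle replicate 2, Gnaq was at 165.5 CPM (136.7 to 141.2 in the other 3) and Atp2a2 at 3000 CPM (2558 to 2619). Gna11 was at 207.7 CPM in knockout ivermectin replicate 4 (235.2 to 239.4 in the other 3). Its share of the summed TPM of Gnaq and Gna11 was 69.85% in wild-type ivermectin replicate 3 (72.84 to 73.33%). The mean transcript length of Plcb1 was 7055 nt in wild-type ivermectin replicate 4 (7113 to 7116 nt).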

How the results depend on the processing

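The rise of Atp2a3 in libraries labelled knockout kept its direction and its call in every alternative run, with log2 values of 0.62 to 0.76 in vehicle, 0.57 to 0.65 under ivermectin and 0.60 to 0.69 averaged. Over 1923 values of all results recomputed, 1759 kept direction and side of the threshold, 97 lost and 15 gained a call, 14 reversed and 38 counts moved by over 1.5 times. Where no cause is named, the cause was not tested.

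The number of members called in vehicle was 2 in place of 1 without the low-count filter (Itpr1 added, adjusted p = 0.0236), and 1 to 2 with libraries left out: 2 without wild-type vehicle replicate 2 (Itpr1, 0.0439) or knockout vehicle replicate 3 (Plcb4, 0.0341). Under ivermectin it was 1 in place of 2 with DESeq2, with thinning and with Alb as a covariate, and 1 to 3 with libraries left out; Itpr1 was added (to 3) without the low-count filter (0.0108), and without wild-type ivermectin replicate 1 (0.0381) or knockout ivermectin replicate 3 (0.0116). Averaged, it was 2 in place of 4 with thinning and 2 with Alb as a covariate, where Gnaq passed (-0.32, adjusted p = 0.0432), and 3 to 5 with libraries left out. Without knockout vehicle replicate 2, Gnaq (0.0283), Atp2a2 (0.0426) and P2ry1 (0.0438) passed; without wild-type ivermectin replicate 2, Gnaq did (0.0432). An effective length offset gave Atp2a2 -0.11 (0.0292). The number of members past the length test was 0 to 2 with libraries left out, where 2 is Atp2a2 and Plcb1. The ivermectin and interaction counts were 0 in every alternative run.

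With Alb as a covariate the vehicle values of Plcb3 (-0.15), Itpr1 (-0.078) and Itpr3 (0.051), the wild-type ivermectin value of Atp2a3 (-0.059) and the interaction of Itpr3 (-0.30) changed sign; none was a call. So did Atp2a3 for wild-type ivermectin with thinning (-0.0056) and with libraries left out (-0.015 to 0.038), Plcb3 in vehicle (-0.037 to 0.17), the Itpr3 interaction (-0.015 to 0.47) and the Atp2a3 length (-0.0016 to 0.00033). Counts over all genes moved with thinning (1251 for 2240 in vehicle, 1410 for 3008 under ivermectin, 2586 for 4316 averaged, 12 for 24 in the interaction). Alb as a covariate gave 403 in vehicle, 1757 averaged, 1 for 65 with ivermectin in wild type and 0 for the interaction. Alb itself was highest in WT-Con, a group that each of these comparisons includes. Without the filter the ivermectin counts were 140 in wild type and 23 for 0 in the knockout line, and 82 for the interaction; with a mean of at least 50 counts they were 7 in wild type and 4 for the interaction.

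The libraries were not treated as pairs, since 2 of 24 same-numbered pairs, not all, deviated together with a correlation over 0.1 (-0.0566 to 0.145). Among libraries of other groups, 9 of 16 libraries correlated best with 1 of their own number, a hint from the data and not the design. Libraries of the same number were a minority of those candidates, and the count expected by chance was not computed. A replicate block left the Atp2a2 length call at 0 members (adjusted p = 0.0592), took the interaction count to 47 genes and added Itpr1 under ivermectin (0.0327). Itpr2 and Itpr3 had the fewest counts of the members, and thinning to 893088 counts brings every library to the depth of the shallowest. Of the 19 named list genes, calls lost in vehicle numbered 15 with Alb as a covariate (at 0.791 to 1.40 times the log2 difference; for example Gnb1 -0.30, adjusted p = 0.118, and Plcg1 0.32, 0.410), 3 with DESeq2 (Cds2, Rcn1, Slc8a2), 4 with thinning (Cds2, Gnb2, Pkd2, Slc8a3) and 5 without at least 1 single library (Cds2, Gnb2, Rcn1, Slc8a2, Slc8a3). Under ivermectin they numbered 1, 2 (Rcn1, Slc8a2), 7 and 3 (Gnb2, Rcn1, Slc8a2). With libraries left out, counts over all genes ran from 55 to 100 with ivermectin in wild type, 8 to 48 for the interaction and 7 to 20 for length.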

Other observations

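Neighbours of Atp2a3 on chromosome 11 were looked at after the values of Atp2a3 were seen, with the difference averaged over treatments, which 39.9% of all genes passed. Of the tested genes nearest to it, Ankfy1 (log2 difference between genotype labels 0.14, edgeR quasi-likelihood adjusted p = 0.0615) and Zzef1 (0.13, adjusted p = 0.223) lie before it, 189 and 34.0 kb away. After it, Camkk1, a kinase kinase of the calmodulin pathway, lies 23 kb away (-0.45, adjusted p = 0.0116), and Tax1bp3, a PDZ protein, lies 184 kb away (0.67, adjusted p = 0.000236). In vehicle alone neither Camkk1 (-0.32, adjusted p = 0.309) nor Tax1bp3 (0.45, adjusted p = 0.118) passed, and under ivermectin both did (adjusted p = 0.0191 and 0.000578).

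Of the 4 tested neighbours of Gna11, Ncln was higher (averaged log2 difference 0.25, edgeR quasi-likelihood adjusted p = 0.000505) and Celf5 was lower (-1.42, adjusted p = 0.000217), while Tle2 (0.42, adjusted p = 0.09998) and Sirt6 (0.036, adjusted p = 0.849) did not pass. Ncln and Celf5 passed in vehicle (adjusted p = 0.00109 and 0.00169) and not under ivermectin (0.200 and 0.0679). The tested neighbours of Itpr1 (Lrrn1, Sumf1, Bhlhe40 and Arl8b) ran from -0.20 to 0.09, and none passed with the averaged difference. Among those of Plcb4, Tmx4, 1014 kb away, was lower (averaged -0.53, edgeR quasi-likelihood adjusted p = 8.88e-10) and passed in both treatments. Plcb1 (-0.21, adjusted p = 0.127), Snap25 (-0.15, adjusted p = 0.0817) and Mkks (0.17, adjusted p = 0.444) did not pass.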
